A study of Mus musculus with 12 samples.

Results

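Gfap-high astrocytes were the nuclei that held at least 3 UMIs of Gfap together with at least 2 UMIs of Slc1a2 and at least 1 UMI of Slc1a3 or Aqp4. They were thus selected on raw counts, mainly on Gfap, and they held at most 1 UMI over the transmitter genes Slc17a7, Slc17a6, Gad1 and Gad2, and 0 UMIs of Mog. A UMI, or unique molecular identifier, stands for 1 captured transcript. This rule found 374 of 184957 nuclei with 500 to 10000 detected genes, or 0.202%. They were 1.76% of the 21241 nuclei that met every other term of the rule, termed rule astrocytes here.

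The nuclei were taken from the left hippocampus of female mice, 3xTg-AD or WT littermates, with 3 mice and 3 libraries per genotype at 6 months and again at 12 months. The 3xTg-AD mice carried the transgenes APPSwe and tauP301L on a mixed B6 and 129 background. In this strain the mouse Thy1 promoter drives both transgenes, which limits them mainly to neurons. Nuclei were sorted by flow cytometry, without a marker of astrocytes, and read from the 3′ end with the 10x Genomics droplet method.

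Astrocytes take up glutamate and potassium, buffer water at blood vessels and supply neurons with lipids and metabolites. Gfap encodes glial fibrillary acidic protein, an intermediate filament protein that is abundant in astrocytes of white matter and of the brain surface and that rises when astrocytes react to injury or disease. In the hippocampus, Gfap is also made by radial stem cells of the dentate gyrus. Slc1a2 and Slc1a3 encode the main glutamate transporters of astrocytes, and Aqp4 encodes the water channel of their endfeet.

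The 12 libraries held 79177051 to 128323908 UMIs and 11352 to 19811 retained nuclei. Each library held 12 to 46 Gfap-high nuclei. Of 180722 distinct barcodes, 4187 were found in more than 1 library, with 29 to 105 shared by any of the 66 pairs of libraries. The barcodes of 14 Gfap-high nuclei were also in another library, and none was shared by 2 Gfap-high nuclei. Scrublet called 12 Gfap-high nuclei doublets, or 3.21%, against 6.79% of all retained nuclei.

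The astrocyte label was checked against markers that the rule did not use. A summed list of 8 astrocyte markers was at 4920, 6110 and 7326 counts per 1000000 UMIs (CPM, lowest, median and highest library) in Gfap-high nuclei. In the 19531 rule astrocytes with 0 Gfap UMIs, termed Gfap-zero astrocytes, it was at 5987, 6474 and 6965 CPM. Vim, the partner filament of Gfap and the marker outside the rule, was at 0, 33.4 and 74.5 CPM against 2.42, 3.43 and 6.85 CPM. Markers of other cells were low. The 5 oligodendrocyte markers summed to a median of 162 CPM against 168 CPM, the 6 microglial markers to 64.0 against 59.7 CPM, and the 3 endothelial markers to 0 against 9.80 CPM. Opalin, Flt1, Kcnj8 and Dcn were at 0 in Gfap-high nuclei, but other genes of their lists were not. The 3 pericyte markers, among them Kcnj8, summed to a median of 53.9 against 49.6 CPM. The 3 meningeal markers, among them Dcn, summed to 11.5 against 22.2 CPM, and the 3 choroid plexus markers to 29.6 against 22.3 CPM. The highest libraries were at 125, 54.8 and 118 CPM in Gfap-high nuclei and at 71.5, 31.1 and 103 CPM in Gfap-zero astrocytes. The 4 markers of oligodendrocyte precursor cells summed to 30.3 CPM in Gfap-high nuclei and to 234 CPM in Gfap-zero astrocytes, and the 3 excitatory markers to 33.0 and 156 CPM. The 4 ependymal markers had a median of 0 in Gfap-high nuclei but reached 393 CPM in a WT library of 12 months.

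Gfap-high nuclei had a median of 3028 UMIs, from 778 to 15463, and 1666.5 genes, from 611 to 4741. The median of Gfap-zero astrocytes was 2677 UMIs. The median Gfap-high nucleus held 4 Gfap, 8 Slc1a2, 4 Slc1a3 and 3 Aqp4 UMIs, and 339 of 374 held no transmitter UMI. Most were close to the threshold, since 160 held 3 Gfap UMIs, 74 held 4, and 140 held 5 or more, with a highest count of 17. Of all 21241 rule astrocytes, 19531 (91.9%) held no Gfap UMI, 1052 held 1 and 284 held 2. Just inside the threshold, nuclei with 3 Gfap UMIs held 922 CPM of Gfap, 920 CPM of Aqp4 and 4701 CPM of Slc1a2, pooled over libraries. Just outside it, nuclei with 2 Gfap UMIs held 624 CPM of Gfap, 729 CPM of Aqp4 and 6026 CPM of Slc1a2. The genes of the rule are described here without a test, because they chose the nuclei. They were left out of the tests of Gfap-high against Gfap-zero nuclei below, but not of those between genotypes and ages.

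Gfap lies on chromosome 11 at 102887336 to 102900912 on the minus strand (GRCm38, GENCODE vM21). The transcription factor STAT3, which acts below cytokine receptors, binds a palindrome of TTCC and GGAA with any 1 base between them, and the promoter of Gfap was searched for them because Gfap selected these nuclei. RefSeq places the start of Gfap inside this span, downstream of the most upstream GENCODE start. In the RefSeq promoter, which spans 250 bases before to 50 bases after the RefSeq start, a match began 2 bases before that start, at chr11:102897184-102897212 with its flanks (GRCm38.p6, minus strand). It is shown with the searched letters in capitals.
Gfap promoter: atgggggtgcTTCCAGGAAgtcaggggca
The same letters were in 310 of 27025 promoters, or 1.15%. They were in 7 of 514 promoters (1.36%) of the genes described below as higher in Gfap-high nuclei under every scaling, and in 2 of 625 (0.32%) of those lower under every scaling. A match is a description of letters and not of a bound site.

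The share of Gfap-high nuclei was compared between genotypes and ages with the library as the unit. Gfap-high nuclei were 1.77%, 2.05% and 2.27% of rule astrocytes in the 3xTg-AD libraries of 6 months and 2.60%, 1.84% and 1.45% in the WT libraries of 6 months. At 12 months, they were 1.08%, 2.52% and 0.990% in 3xTg-AD and 2.33%, 0.866% and 1.44% in WT. The groups overlapped at both ages. The 12-month libraries were spread more widely, with 1 3xTg-AD and 1 WT library at 2.33% or above and the other 4 at 1.44% or below.

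Over 6 libraries per genotype, the mean share was 1.78% ± 0.628 (SD) in 3xTg-AD and 1.75% ± 0.638 in WT, a difference of 0.0270 percentage points (two-sided exact permutation test, p = 0.945, adjusted p = 1 over 15 tests). The share was 1.54% ± 0.715 at 12 months and 2.0% ± 0.405 at 6 months (exact permutation, p = 0.22, adjusted p = 1). The genotype difference at 12 months minus that at 6 months was -0.0842 points (exact permutation, p = 0.9, adjusted p = 1). Of all retained nuclei, Gfap-high nuclei were 0.168% ± 0.0719 at 12 months and 0.237% ± 0.0515 at 6 months (exact permutation, p = 0.095, adjusted p = 1). Genotypes were permuted within ages and ages within genotypes, so that the smallest p these tests could give was 0.005 with 6 libraries a side. With 3 libraries a side it was 0.1. Without the 12-month 3xTg-AD replicate 6, the difference between ages among retained nuclei was -0.0915 points (exact permutation, p = 0.035, not adjusted), and with nuclei thinned to 3000 UMIs it was -0.025 points (exact permutation, p = 0.485). Among rule astrocytes thinned in this way, the shares at 12 and 6 months differed by -0.178 points (exact permutation, p = 0.745), against -0.458 points without thinning. Thinning left out every nucleus with fewer than 3000 UMIs, so that the settings did not cover the same nuclei. After it there were 132991 nuclei, 8525 rule astrocytes and 121 Gfap-high nuclei. The exact 95% binomial interval of a single library reached from 0.448% to 1.51% in the library with 12 Gfap-high nuclei and from 1.86% to 3.52% in the library with the highest share, which covers counting error only.

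The level of Gfap over all rule astrocytes uses no threshold on Gfap. It was at 49.9, 54.7 and 53.4 CPM in the 6-month 3xTg-AD libraries and at 51.8, 58.7 and 44.2 CPM in the 6-month WT libraries. At 12 months it was at 30.7, 64.9 and 35.0 CPM in 3xTg-AD and 61.3, 31.7 and 44.2 CPM in WT, so that the highest and the lowest values of the study were both at 12 months and both in 3xTg-AD. On the log2 scale, 3xTg-AD and WT differed by -0.03 (5.54 ± 0.42 against 5.57 ± 0.35, SD, n = 6, exact permutation, p = 0.865), and 12 and 6 months by -0.29 (5.41 ± 0.48 against 5.70 ± 0.14, n = 6, exact permutation, p = 0.215). All 15 adjusted p of the shares and levels were 1. Without the 12-month 3xTg-AD replicate 6, the difference between ages was -0.45 (exact permutation, p = 0.045, not adjusted), and in nuclei with at least 10 Slc1a2 UMIs it was -0.0981 (exact permutation, p = 0.72). The genotype difference at 12 months minus that at 6 months was -0.14 (exact permutation, p = 0.72) and in these nuclei -0.82 (exact permutation, p = 0.11).

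**Figure D1:**
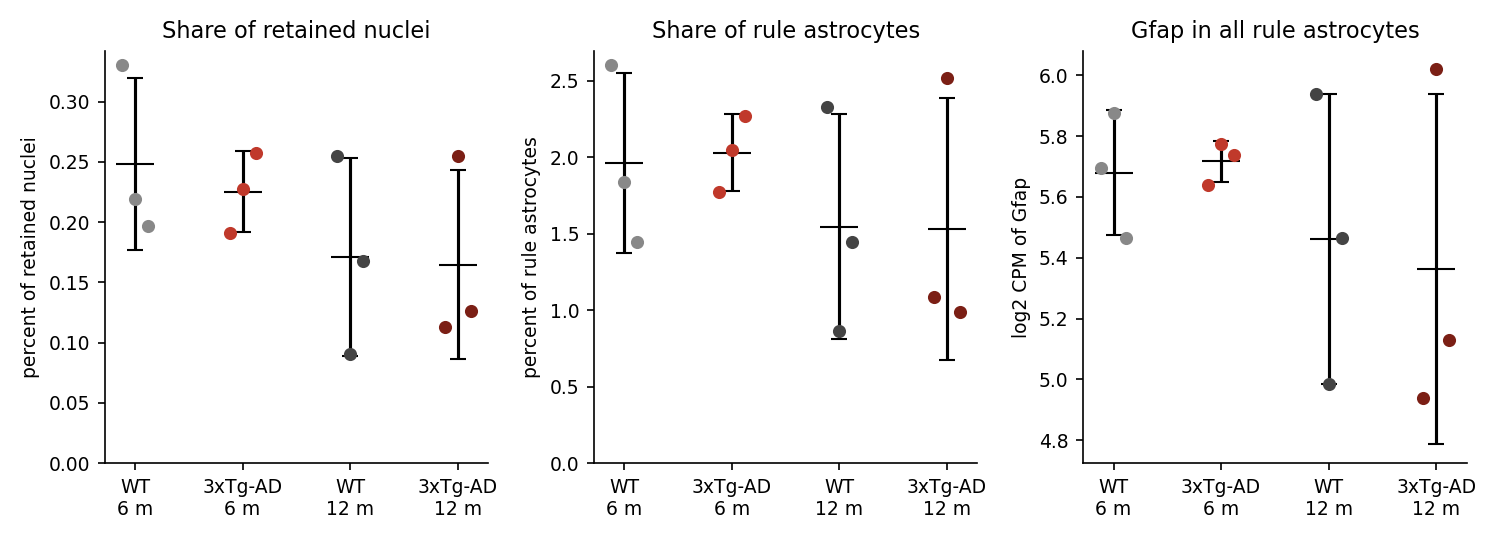
Share of Gfap-high nuclei among retained nuclei (left, percent) and among rule astrocytes (middle, percent), and level of Gfap over all rule astrocytes (right, log2 CPM, axis not from 0). Each point is 1 library, the line is the mean and the bars are the SD of 3 libraries. The genotypes overlapped at both ages, and the 12-month libraries spread from 0.866% to 2.52% of rule astrocytes.

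To describe what went along with Gfap in the same nuclei, UMIs were summed per library over Gfap-high nuclei and over Gfap-zero astrocytes. The 9 genes of the rule were left out and every other gene was tested with the quasi-likelihood test of edgeR, with the library as a block. The split between the classes was made on the Gfap count, so that the tests describe genes that moved with it. Of 15319 genes tested, 2708 were called (17.7%) at an adjusted p under 0.05 and a log2 fold change of more than 0.2 in either direction. Of these, 771 were higher in Gfap-high nuclei (5.03% of the genes tested) and 1937 were lower (12.6%). Of these, 199 higher and 419 lower genes went the same way in 12 of 12 libraries. The filter on low counts asked for 4.63 CPM in 2 of the 24 sums, and 2335 of the genes tested passed it only through Gfap-high sums, among them 187 of the 771. A gene that passed in this way was selected on its level in Gfap-high sums. It need not have been high there, since 1 UMI came to 24.5 CPM in the 12-month WT replicate 8. Counts and medians of lists are given below without such genes too where a list held any that were called.

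The split depended on the scaling. The median log2 fold change over all genes was -0.20 under TMM, the normalization used, and moved by 0.18, 0.24 and 0.18 under RLE, library totals and DESeq2. The higher genes made up 28.5% of the calls under TMM, 47.6% under RLE, 54.8% under library totals and 57.4% with DESeq2. Under all 4 scalings, 737 genes were called higher and 860 lower. In nuclei with at least 10 Slc1a2 UMIs, which left 160 Gfap-high and 10427 Gfap-zero nuclei, 227 and 621 of these were called as well. The 737 and 227 higher genes were not counted without those that passed the filter only through Gfap-high sums.

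The genes with the smallest adjusted p that were higher in Gfap-high nuclei included Slc38a1, a glutamine transporter. Slc38a1 was at 428, 837 and 1367 CPM (lowest, median and highest library) in Gfap-high nuclei and at 45.3, 72.4 and 122 CPM in Gfap-zero astrocytes. Every Gfap-high value was above every Gfap-zero value, with a log2 fold change of 3.29 (edgeR, adjusted p = 1.38e-80). A2m, the protease inhibitor alpha-2-macroglobulin, was at 149, 257 and 504 CPM against 13.9, 22.97 and 36.3 CPM (log2 fold change 3.43). In both genes the classes were apart in all 12 libraries.

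Myoc, which encodes the secreted protein myocilin, was at 27.7, 289 and 635 CPM in Gfap-high nuclei and at 0, 3.98 and 10.3 CPM in Gfap-zero astrocytes (log2 fold change 6.09, SE 0.20, edgeR, adjusted p = 1.16e-78). Its level in Gfap-high nuclei varied between libraries more than that of Slc38a1. It was at 635, 552 and 310 CPM in 6-month 3xTg-AD, 49.8, 40.8 and 559 CPM in 6-month WT, 223, 338 and 515 CPM in 12-month 3xTg-AD, and 27.7, 172 and 269 CPM in 12-month WT. Slc36a2, a transporter of small amino acids, had the largest fold change of the leading genes, at 10.7, 87.5 and 208 CPM against 0.224, 0.527 and 1.45 CPM (log2 fold change 6.74, SE 0.31).

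The other leading genes were the secreted protein gene Ccdc3 (log2 fold change 4.97), the non-coding transcript C530044C16Rik (4.44), the calcium-activated chloride channel gene Ano1 (3.83), Prune2 (2.95) and Pdzrn3 (2.45). Each was above the Gfap-zero level in 12 of 12 libraries without overlap. Their medians in Gfap-high nuclei were from 165 CPM for C530044C16Rik to 537 CPM for Prune2. Slc38a1 lies on chromosome 15 (96571418 to 96642913), Myoc on chromosome 1 (162639155 to 162649693) and Slc36a2 on chromosome 11 (55158470 to 55185077). With at least 10 Slc1a2 UMIs in both classes, these 9 genes kept their calls with smaller differences, such as 5.44 for Myoc and 1.95 for Ano1 on the log2 scale.

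The leading genes that were lower included genes of astrocytes and genes that other cells share. Gpc5, a heparan sulfate proteoglycan of astrocytes, was at 2100, 3831 and 5192 CPM in Gfap-high nuclei and at 7432, 8658 and 9407 CPM in Gfap-zero astrocytes (log2 fold change -1.44, SE 0.08, edgeR, adjusted p = 9.26e-47). Gria2, a subunit of AMPA-type glutamate receptors, was at 244, 495 and 1005 CPM against 1326, 1516 and 1602 CPM (log2 fold change -1.76). Trpm3, a cation channel, was at 1770, 3320 and 5195 CPM against 5555, 6744 and 7492 CPM (log2 fold change -1.39). All 3 were lower in 12 of 12 libraries with no overlap between the classes.

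Kcnd2, a potassium channel (log2 fold change -1.36), Anks1b (-2.47), the adhesion genes Dscam (-2.64) and Opcml (-1.99), Adarb2 (-3.03), Ralyl (-2.31) and Csmd3 (-1.80) were lower in the same way. Several of these genes are also made by oligodendrocyte precursor cells and neurons, whose markers were lower in Gfap-high nuclei too. Without nuclei that held Pdgfra or Vcan UMIs, a choice made after the data were seen, Dscam was at -1.41, Opcml at -1.26 and Anks1b at -1.68, while Gpc5 was at -1.51 and Gria2 at -1.82. All of these stayed called.

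**Figure D2:**
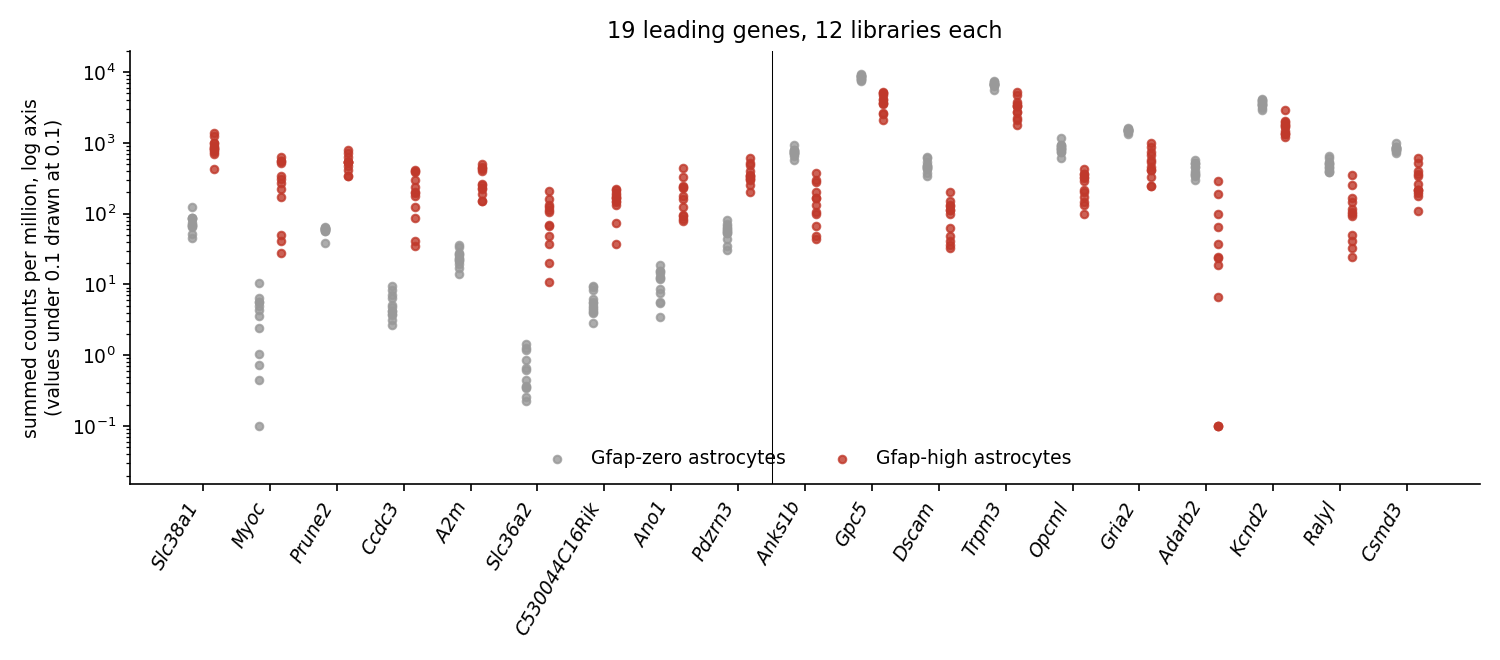
Level of 9 leading higher and 10 leading lower genes, as summed CPM on a log axis, with 1 point per library in Gfap-zero (grey) and Gfap-high (red) astrocytes, and values at 0 drawn at the lowest tick. For all 19 genes the 12 Gfap-high values lie on one side of the 12 Gfap-zero values, and the Myoc and Slc36a2 points of Gfap-zero astrocytes are near the bottom of the axis.

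The shares of nuclei with a UMI showed how the leading genes were spread among single nuclei. Myoc was found in 26.7% of Gfap-high nuclei and in 23.4% after thinning to 2000 UMIs, against 0.492% and 0.366% of Gfap-zero astrocytes. Thinning left out 58 Gfap-high and 5340 Gfap-zero nuclei with fewer than 2000 UMIs. The share of Myoc without thinning was 0.131% in nuclei with at least 2 Mog UMIs, no Gfap UMI and fewer than 2 Slc1a2 UMIs. These nuclei were taken as oligodendrocytes that should lack Myoc. Median depths were 3028, 2677 and 2308 UMIs. Slc38a1 was found in 68.2%, 13.4% and 7.75% of the same classes, and Cd44 in 28.9%, 1.63% and 0.704%. Slc6a11 went the other way, with 57.2% of Gfap-high and 80.2% of Gfap-zero nuclei.

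Genes of reactive astrocytes, which rise in injured or inflamed tissue, were higher in part. The pan-reactive list had 13 genes including Gfap, of which 9 were tested and 7 were higher, 6 of them under every scaling, with none lower. Of the 7, Hspb1 and Cxcl10 passed the filter only through Gfap-high sums, and 5 of the 6 genes that passed it in Gfap-zero sums were higher. The median log2 fold change of the 9 was 2.77, against -0.20 over all genes tested, and that of the 6 was 2.64, against -0.25 over the 12984 genes that passed in Gfap-zero sums. Cd44, a receptor for hyaluronan, was at 49.1, 127 and 220 CPM against 4.49, 5.93 and 8.65 CPM (log2 fold change 4.17, SE 0.21, edgeR, adjusted p = 6.78e-49). Vim was higher in 11 of 12 libraries (log2 fold change 2.77) but at low levels. Serpina3n, a protease inhibitor (2.52), Osmr, the oncostatin M receptor (2.87), and Aspg (2.20) were also called. Lcn2 and Steap4, which mark strong acute reactions, were at 0 in every Gfap-high sum. Cxcl10 had 17 UMIs in Gfap-high nuclei, all in 1 library.

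The A1 and A2 lists are named for reactions to inflammation and to ischemia. Of the A1 list, 10 of 12 genes were tested, 4 were higher and 2 lower, with a median of 1.35. The 4 were higher under every scaling and 0 were lower under every scaling. Of the 4, 3 (Serping1, Iigp1 and Gbp2) passed the filter only through Gfap-high sums, and of the 5 genes that passed it in Gfap-zero sums 1, Ggta1, was higher, with a median of 0.14 for the 5. Of the A2 list, 5 of 12 were tested and 2 were higher, with a median of 1.56, and Cd109 was the 1 gene of the 5 that passed the filter in Gfap-zero sums. Ggta1, which encodes a sugar transferase, was at 74.5, 155 and 266 CPM against 8.71, 13.005 and 24.5 CPM (log2 fold change 3.30). Cd109, a surface protein that binds the TGF-beta receptor complex, was at 21.4, 37.5 and 101 CPM against 1.90, 3.55 and 8.01 CPM (3.26). The A2 genes Ptx3, Ptgs2, Sphk1, B3gnt5 and Cd14 were at 0 in Gfap-high nuclei.

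The list of disease-associated astrocytes, a state described in mice with amyloid plaques, was higher in 9 of its 12 tested genes and lower in Cst3 (-0.71), with a median of 1.58. C4b, a component of the complement cascade, was at 151, 311 and 447 CPM against 22.8, 41.9 and 79.4 CPM, and was apart in all 12 libraries (log2 fold change 2.65, SE 0.14, edgeR, adjusted p = 3.02e-48). Id3, which blocks basic helix-loop-helix factors, was at 172, 305 and 603 CPM against 47.9, 74.99 and 153 CPM (1.77). Cd9, a tetraspanin (1.39), and Clu, the apolipoprotein clusterin (0.56), were higher by less. Apoe, the main lipid carrier of astrocytes, was at 2068, 2613 and 4132 CPM against 1444, 2027 and 3231 CPM and was not called (log2 fold change 0.14, adjusted p = 0.227), although it was called under the other 3 scalings. These nuclei came from both genotypes, and the difference was between the classes of the same library.

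Among STAT3 and cytokine genes, 5 of 12 were higher, all under every scaling, and 3 lower, 1 of them under every scaling, with a median of -0.03. The 5 were Stat3, Osmr, the shared receptor subunit gene Il6st, the feedback inhibitor gene Socs3 and the growth factor gene Tgfb2. Socs3 passed the filter only through Gfap-high sums, and 4 of the 11 genes that passed it in Gfap-zero sums were higher, with a median of -0.07 for the 11. Stat3 was at 150, 247 and 319 CPM against 81.5, 98.3 and 112 CPM, higher in 12 of 12 libraries (log2 fold change 1.03, SE 0.13, edgeR, adjusted p = 9.54e-13). Il6st was at 98.2, 225 and 314 CPM against 47.9, 57.4 and 66.6 CPM (1.66), but at 0.57 without a call in nuclei with at least 10 Slc1a2 UMIs. Smad3, a transducer of TGF-beta signals, was lower (-1.11). Of complement and MHC genes, C4b, Serping1 and C3 were higher and none of 7 was lower, with a median of 0.76. Serping1 and C3 passed the filter only through Gfap-high sums, where C3 had 12 UMIs. Of the 5 genes that passed it in Gfap-zero sums 1, C4b, was higher, with a median of 0.72 for the 5.

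In the list for the handling of glutamate, GABA and potassium, which holds transporters, channels, receptors and glutamine synthetase, most genes were lower. Of 14 genes tested besides Slc1a2 and Slc1a3, 10 were lower, 8 of them under every scaling, and 1 was higher, with a median of -0.79. Slc6a11, the GABA transporter GAT-3, was at 332, 538 and 791 CPM against 809, 994 and 1248 CPM, with no overlap (log2 fold change -1.21, SE 0.10, edgeR, adjusted p = 3.65e-25). Slc7a10, which carries serine, was at 61.0, 99.7 and 188 CPM against 256, 305 and 377 CPM (-1.79). The metabotropic glutamate receptor genes Grm5 (-1.45) and Grm3 (-0.82) and Glul, glutamine synthetase (-0.67), were lower as well. Slc7a11, the cystine and glutamate exchanger, was the gene called higher, and was at -0.31 without a call in nuclei with at least 10 Slc1a2 UMIs.

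The astrocyte identity list was also lower on balance, with 12 of 15 genes lower, 1 higher (Sox9, 0.46) and a median of -0.68. Of the 12, 9 were lower under every scaling. Sox9 kept its call in 11 of 20 alternative runs. Ndrg2 (-0.76), Fgfr3 (-0.68), Acsbg1 (-0.84) and F3 were among the lower genes. Of the connexin genes, Gjb6 (connexin 30) was at 49.8, 115 and 219 CPM against 152, 192 and 264 CPM (-0.86), while Gja1 (connexin 43) was at 252, 362 and 571 CPM against 246, 292 and 326 CPM and was not called (0.12, adjusted p = 0.523). The endfoot list had 1 higher gene, Utrn (0.68), and 2 lower genes, Dmd (-0.62) and Kcnj10 (-0.52), of 10 tested, with 1 of the lower genes called under every scaling. Utrn was at -0.0017 in nuclei with at least 10 Slc1a2 UMIs. For Aqp4, described only because it was in the rule, the level was 577, 1127 and 1550 CPM against 162, 204 and 244 CPM.

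Genes of subpial and fibrous astrocytes, which lie at the brain surface and in white matter, were mostly higher. Of 9 genes, 8 were higher, 7 of them under every scaling, with a median of 1.77. These were Myoc, Slc38a1, Cd44, Id1 (2.11), Id3, Igfbp5 (1.58), Thbs4 and Fabp7. Igfbp5, which binds insulin-like growth factors, was at 123, 202 and 262 CPM against 41.4, 54.2 and 73.7 CPM. Fam107a was at 25.1, 115 and 196 CPM against 76.8, 113 and 161 CPM, and was not called. Cd44, Id3 and Slc38a1 were in other lists or among the leading genes too, and the list was chosen with results of these data known.

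Genes of astrocytes of the telencephalon had 2 of 5 lower and 3 not called, with a median of -0.21 against -0.20 over all genes tested, and those of astrocytes outside it had 4 of 7 lower, 1 higher and 2 not called, with a median of -0.92. Mfge8, which encodes a bridge for the clearance of dying cells, was lower (12.5, 54.1 and 134 CPM against 69.4, 94.2 and 150 CPM, log2 fold change -1.11) and so was Lef1 (-1.48). Of the genes of astrocytes outside the telencephalon, Slc6a11, Itih3 (-1.38), Slc6a9 (-1.44) and Sparc (-0.92) were lower and Otx2 was called higher (0.60), although it was at -1.08 without a call in nuclei with at least 10 Slc1a2 UMIs. Agt, which encodes angiotensinogen and is abundant in diencephalic astrocytes, was at 125, 200 and 261 CPM against 117, 171 and 304 CPM, with 6 libraries higher and 6 lower (-0.13, adjusted p = 0.544).

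In the matrix and adhesion list, 5 of 14 genes were higher and 4 lower (4 and 3 under every scaling), with a median of 0.22. Without the genes that passed the filter only through Gfap-high sums, 4 of 12 were higher, with a median of -0.00015. Tnc, the matrix protein tenascin C, was at 33.6, 166 and 299 CPM against 8.01, 20.5 and 38.7 CPM (2.79), while Vcan was lower (-2.59) and is also a gene of oligodendrocyte precursor cells. Of 14 lipid and cholesterol genes, Clu and Fabp7 were higher and Abcg1 was lower on 5 UMIs. Of neural stem and progenitor genes, 8 of 11 were tested, Hopx (1.99) and Thbs4 were higher and Hes5 (-1.17) and Dcx were lower, with 1 of the 2 higher genes called under every scaling. Mki67 and Top2a, which mark dividing cells, were at 0 in Gfap-high nuclei. Of the filament list, Vim and Plec (1.49), a linker of filaments, were higher, and Macf1 was lower under TMM alone of the 4 scalings.

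**Figure D3:**
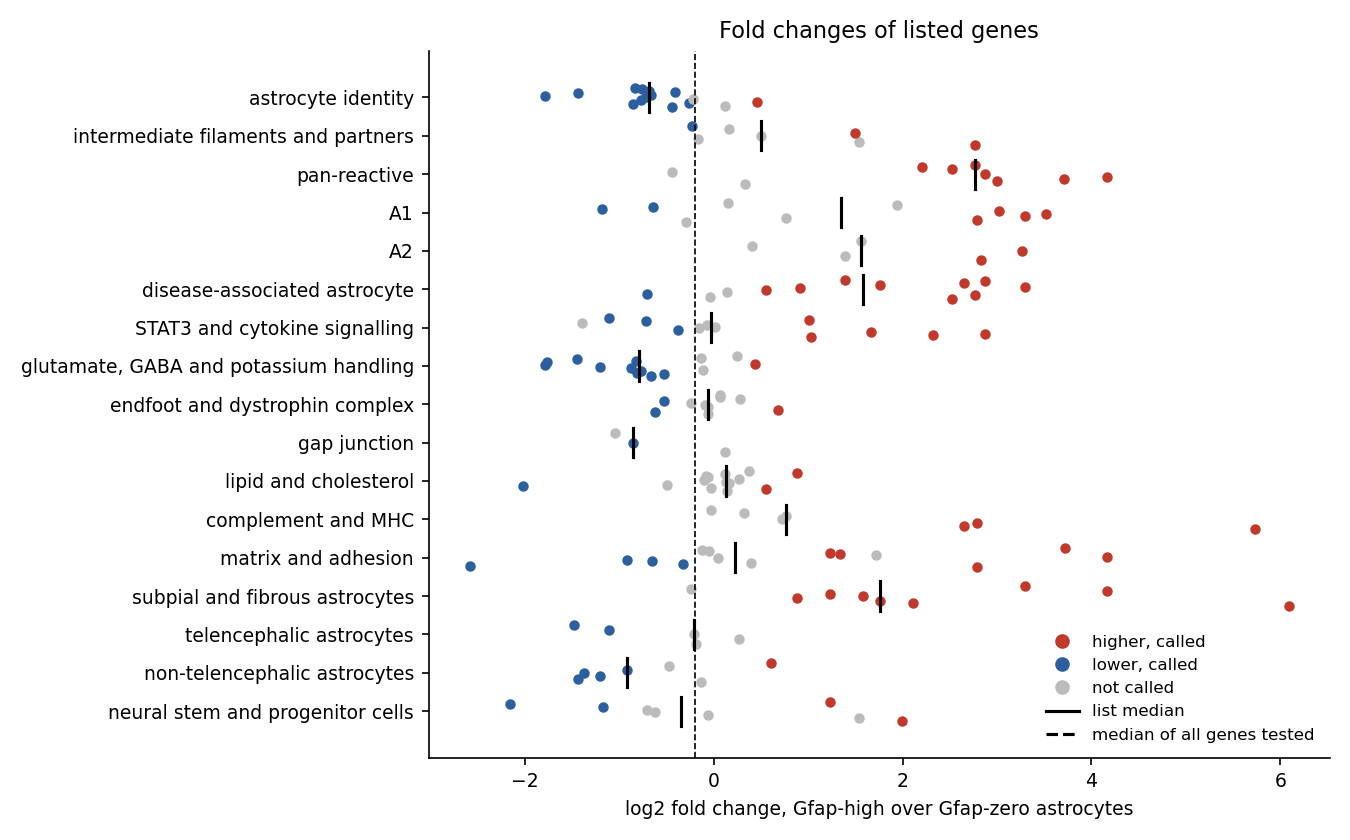
Log2 fold change of each tested gene of 17 lists between Gfap-high and Gfap-zero astrocytes (1 point per gene, red called higher, blue called lower, grey not called). The black bar is the median of a list and the dashed line is the median of all 15319 genes, at -0.20. The pan-reactive list has its median at 2.77 and the list for glutamate, GABA and potassium handling at -0.79. Points include genes that passed the filter on low counts only through Gfap-high sums.

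Nuclei below the threshold allowed the same genes to be followed over the Gfap count. Values were pooled over libraries and are given without a test. Slc38a1 was at 76.2 CPM in nuclei without Gfap UMIs, at 233 with 1, 519 with 2, 722 with 3 or 4 and 1105 CPM with 5 or more. Myoc was at 3.6, 41.9, 160, 224 and 398 CPM over the same steps, and Cd44 at 6.03, 19.01, 47.3, 113 and 169 CPM. All 9 leading higher genes described above increased at each of these steps. Gpc5 decreased from 8467 over 7668, 6858 and 4672 to 2744 CPM, and 6 of the 10 leading lower genes decreased at each step. Both sets were chosen on the difference between Gfap-high and Gfap-zero nuclei, which form the ends of these steps. Their direction from end to end was thus given, and only the order of the single steps was open. The share of all genes with such an order was not counted.

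Not every gene followed the count. Slc1a2 was at 4256, 5652, 6026, 4337 and 3397 CPM, highest in nuclei with 2 Gfap UMIs. Apoe was at 2100, 3029, 3277, 2733 and 2454 CPM, and Agt was at 182, 230, 195, 165 and 218 CPM. Mfge8 was at 101, 140 and 132 CPM with 0, 1 and 2 Gfap UMIs and at 58.9 and 45.1 CPM in the 2 highest steps. A nucleus of greater depth is more likely to hold a Gfap UMI at all, and the part of depth in these curves was not tested.

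**Figure D4:**
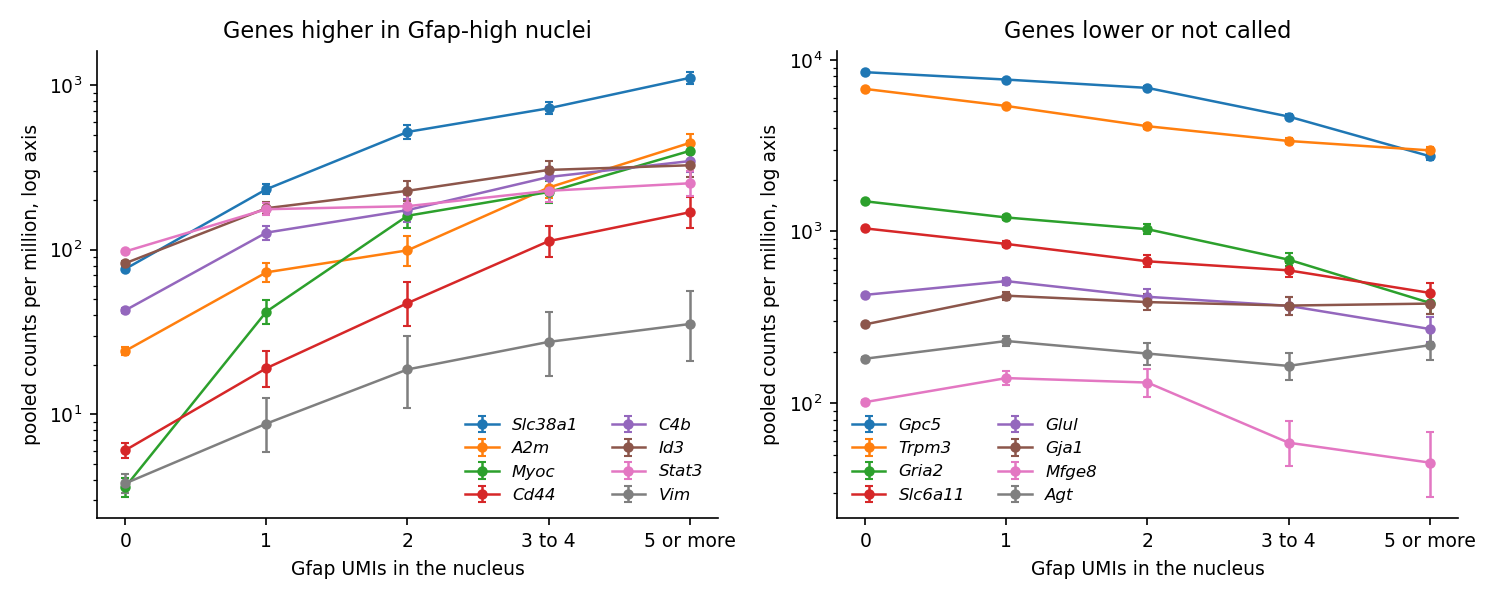
Pooled CPM on a log axis over the number of Gfap UMIs per nucleus (0, 1, 2, 3 to 4, 5 or more), with exact Poisson 95% intervals that cover counting error only. The left panel shows genes higher in Gfap-high nuclei, where Slc38a1 goes from 76.2 to 1105 CPM, and the right panel shows genes that were lower or not called, where Gpc5 goes from 8467 to 2744 CPM.

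The Gfap-high nuclei were not uniform. Slc38a1 was chosen after its values were seen, to describe this spread without a test. Of 374 nuclei, 201 (53.7%) held at least 2 Slc38a1 UMIs and 119 (31.8%) held none. The first kind made up 23.5% to 66.7% of the Gfap-high nuclei of a library and the second 15% to 58.8%. Gfap itself was at 1454 CPM (exact Poisson 95% interval 1367 to 1545) and 1261 CPM (1149 to 1381).

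Other genes differed widely between these kinds. With Slc38a1, Myoc was at 453 CPM, Ano1 at 278, Aqp4 at 1319, Gpc5 at 1911 and Slc1a2 at 2656 CPM. Without Slc38a1, Myoc was at 43.4 CPM, Ano1 at 18.98, Aqp4 at 759, Gpc5 at 7807 and Slc1a2 at 6559 CPM. The level of Gpc5 without Slc38a1 was near the 8467 CPM of Gfap-zero astrocytes. How far the limit of at least 10 Slc1a2 UMIs used above changed the shares of these kinds was not tested. The cell adhesion genes Ctnna3 (1284 and 323 CPM) and Pkp4 (1050 and 228 CPM), also chosen after their values were seen, were higher with Slc38a1. The part of depth in this split was not tested, and the kinds held 712654 UMIs in 201 nuclei and 368784 UMIs in 119 nuclei.

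The reactive genes differed among themselves between these kinds. C4b was at 328 CPM with Slc38a1 and 260.3 CPM without it, Id3 at 309 and 306, and Vim at 35.1 and 29.8 CPM. Cd44 was at 185 and 51.5 CPM, higher with Slc38a1, while Osmr was at 23.9 and 62.4 CPM and Stat3 at 209 and 304 CPM. Mfge8 was at 32.3 and 86.8 CPM. Osmr rested on 17 and 23 UMIs and Vim on 25 and 11 UMIs, pooled over libraries that held the kinds in unlike shares. Between libraries, Osmr was at 0 to 151 CPM in Gfap-high nuclei. The transcript Meg3, abundant in neurons, was at 1128 CPM with Slc38a1 and 523 CPM without it.

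Genotypes were then compared within Gfap-high nuclei, on sums of 12 to 46 nuclei per library. In such sums fewer transcripts per nucleus and fewer nuclei of one kind cannot be told apart. At 6 months, 3 of 2351 genes were called (0.128%), all lower in 3xTg-AD, and DESeq2 called the same 3. The direction was not kept in all settings. Without 3xTg-AD replicate 1, 20 genes were called higher and 9 lower, and without the filter on low counts 17 higher and 5 lower. With all 12 libraries in 1 fit, 0 genes were called. An unadjusted p under 0.05 was found for 145 genes with edgeR and 63 with DESeq2.

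Egfem1, which encodes a protein with EGF-like repeats, was at 171, 362 and 134 CPM in the 3xTg-AD libraries and 716, 909 and 669 CPM in the WT libraries of 6 months. Every 3xTg-AD value was below every WT value (log2 fold change -1.80, SE 0.31, edgeR, adjusted p = 0.0139). In Gfap-zero astrocytes of the same libraries it was at 324, 305 and 263 CPM against 331, 413 and 373 CPM. At 12 months, the Gfap-high values overlapped, at 192 to 391 CPM in 3xTg-AD and 147 to 636 CPM in WT.

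The unannotated gene AC149090.1 was at 73.3, 86.7 and 64.2 CPM in 3xTg-AD and 330, 296 and 406 CPM in WT at 6 months (log2 fold change -2.21, SE 0.31, edgeR, adjusted p = 0.00243). In Gfap-zero astrocytes of 6 months its values were apart as well, at 140, 114 and 95.5 CPM against 366, 471 and 495 CPM. At 12 months it was at 205 to 553 CPM in 3xTg-AD and 98.2 to 332 CPM in WT, so that the groups overlapped. Gm5089 (ENSMUSG00000115263), a predicted gene, was at 183, 47.3 and 102 CPM against 305, 460 and 351 CPM (-1.83, SE 0.35, edgeR, adjusted p = 0.0424). In Gfap-zero astrocytes it was at 60.4, 52.8 and 50.9 CPM against 83.0, 93.0 and 87.6 CPM. With Gfap counts of at least 5, none of these 3 genes was called.

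At 12 months, 0 of 1441 genes were called (0% by edgeR and by DESeq2), with an unadjusted p under 0.05 for 60 genes in edgeR and 35 in DESeq2. Without the 12-month 3xTg-AD replicate 6, 10 genes were called. For the interaction of genotype and age, 0 of 2509 genes were called (0%) by edgeR or by DESeq2, with 114 and 60 genes at an unadjusted p under 0.05. Between 12 and 6 months, 1 of 2263 genes was called (0.0442%). It was Lrrtm4, a synaptic adhesion gene of neurons, at 159, 118 and 294 CPM in 3xTg-AD and 74.7, 81.7 and 76.7 CPM in WT at 6 months. At 12 months it was at 2048, 159 and 1017 CPM in 3xTg-AD and 671, 123 and 386 CPM in WT, so that the ages overlapped (log2 fold change 2.43, edgeR, adjusted p = 0.0481). DESeq2 called 0 genes there, and edgeR called 0 without doublets.

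The listed genes, which here include genes of the rule, were called in none of these 4 comparisons. Between genotypes at 6 and 12 months, between ages and for the interaction, 71, 58, 72 and 76 of them were tested. Few were genes of reactive astrocytes. In the same order, 2, 1, 2 and 3 of 13 pan-reactive genes and 8, 8, 9 and 10 of 14 disease-associated genes were tested. Of 12 A1 genes 1 was tested in each comparison, and of 12 A2 genes 0. The median log2 fold change of the listed genes tested was -0.02 between genotypes at 6 months, -0.05 at 12 months and 0.00 between ages. The smallest adjusted p was 0.354, for Bcan at 6 months. C4b was at 281, 260 and 251 CPM in 3xTg-AD and 318, 368 and 395 CPM in WT at 6 months. At 12 months it was at 447, 305 and 151 CPM in 3xTg-AD and 339, 368 and 252 CPM in WT. The 6-month values were apart and lower in 3xTg-AD without a call, and the 12-month values overlapped. The genes that the alleles of the strain derive from were not called either. App was at 281, 323 and 406 CPM in 3xTg-AD and 324, 296 and 241 CPM in WT at 6 months, and Mapt at 183, 173 and 139 CPM against 224, 245 and 186 CPM, with Mapt apart but not called. Counts on the mouse genome do not show the human transgenes themselves.

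Whether genotypes differed otherwise in Gfap-high than in Gfap-zero astrocytes was tested with the term for class and genotype, with the library as a block. At 6 months, 12 of 14294 genes were called (0.084%), 9 with a positive and 3 with a negative term. At 12 months, 25 of 13876 genes were called (0.18%), 23 positive and 2 negative. DESeq2 called 0 at either age. At 12 months Meg3 was at 1583, 942 and 2022 CPM in the Gfap-high nuclei of 3xTg-AD and 394, 712 and 605 CPM in those of WT, without overlap. In Gfap-zero astrocytes its means were 1432 ± 188 (SD) and 1484 ± 404 CPM. Snhg11, a host gene of small nucleolar RNAs, was at 1378, 438 and 1444 CPM against 291, 270 and 403 CPM. Galntl6 was at 1024, 153 and 151 CPM against 20.8, 24.5 and 50.4 CPM.

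In Gfap-high nuclei, the 3 excitatory markers summed to 26.5 to 213 CPM in 3xTg-AD and 0 to 159 CPM in WT at 12 months, and to 12.2 to 144 CPM and 0 to 12.5 CPM at 6 months. The 4 markers of oligodendrocyte precursor cells summed to 58.8 to 73.3 CPM in 3xTg-AD and 10.2 to 32.9 CPM in WT at 6 months, without overlap. At 12 months they summed to 0 to 39.8 CPM in 3xTg-AD and 0 to 134 CPM in WT. The part of RNA of neurons or of oligodendrocyte precursor cells in these terms was not tested.

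**Figure D5:**
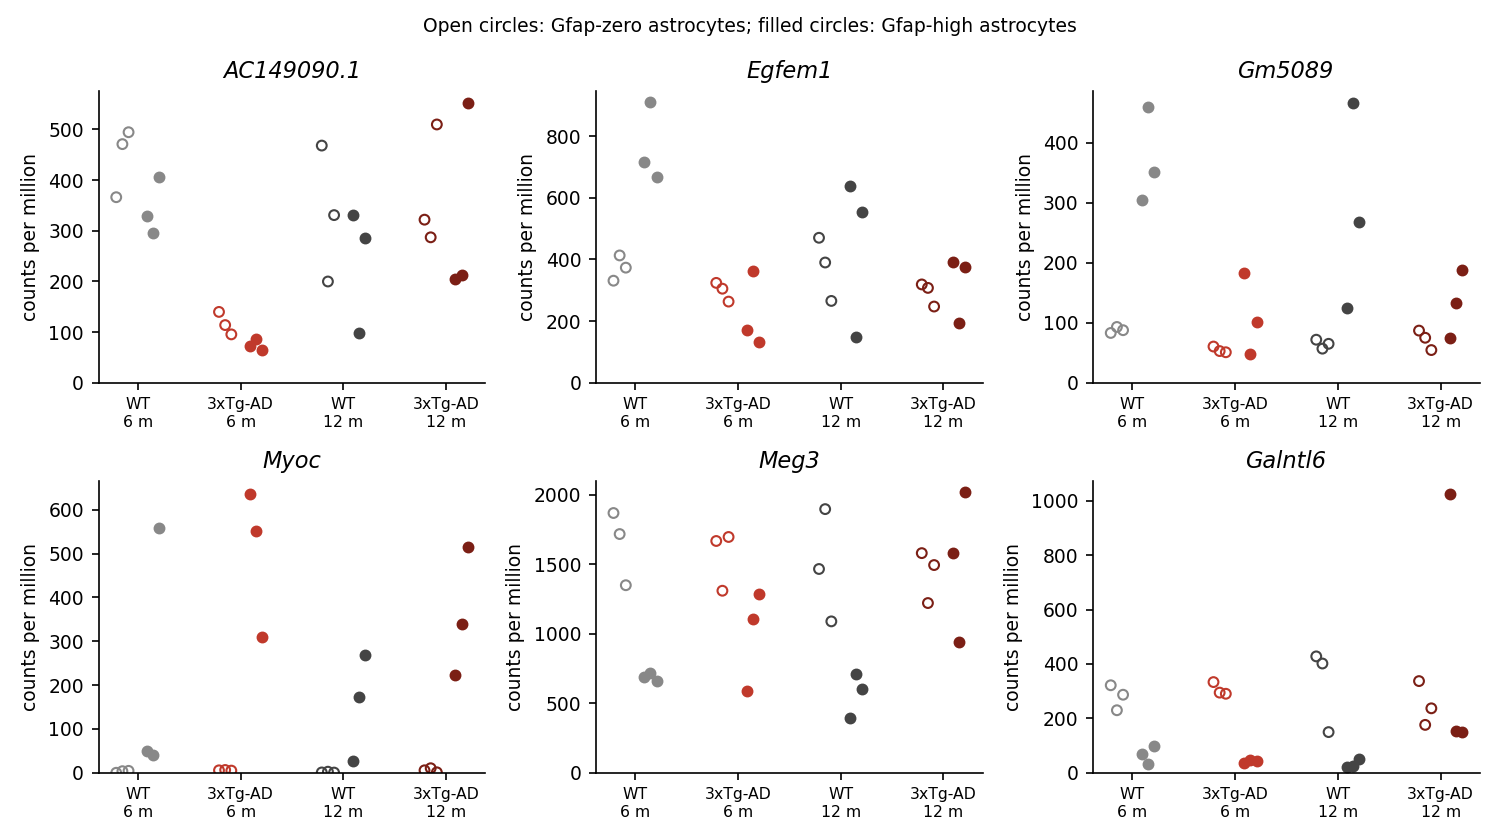
Level of 6 genes in CPM in every library, in Gfap-zero (open circles) and Gfap-high (filled circles) astrocytes, by genotype and age. AC149090.1, Egfem1 and Gm5089 are lower in the 3 Gfap-high sums of 3xTg-AD than in those of WT at 6 months, Myoc varies from 27.7 to 635 CPM between libraries, and Meg3 and Galntl6 are higher in 3xTg-AD at 12 months in the Gfap-high sums.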

How the data were processed

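The authors aligned the reads to mm10 with Cell Ranger 6.1.1 and deposited counts of UMIs per gene and nucleus for 12 libraries, without normalization and before their removal of ambient RNA with soupX and their filters on nuclei. Free RNA therefore remains in the counts. Nuclei with 500 to 10000 genes were retained, and Scrublet (scanpy 1.11.5, expected share 8%) marked doublets, which were kept. Replicates are separate mice. The members and gene lists were chosen with earlier results of these data known.

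Counts were summed per library and class and tested with edgeR 4.0.16 (quasi-likelihood, TMM, its filter on low counts, two-sided). Ages were fitted separately for genotype, age was fitted with genotype as a covariate, and classes with the library as a block. Adjusted p are from the Benjamini-Hochberg method over all genes tested, and a call needed an adjusted p under 0.05 with a log2 fold change of more than 0.2 in either direction. Each SE was derived from the edgeR test, as the size of the log2 fold change over the square root of the F statistic. DESeq2 1.42.0 was the alternative test. Shares, and Gfap levels as log2 CPM, were compared with exact permutation tests over libraries. Scripts were tested on simulated data.

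Named genes are, per comparison, the called genes with libraries on one side, up to 10 per direction in order of adjusted p, and listed genes that were called or carried their list. Some leading and listed genes are not reported here. Ctnna3, Pkp4, Lrrtm4, Meg3 within the Slc38a1 kinds, and the split on Slc38a1 were chosen after values were seen. Alternatives were RLE, no filter, other Gfap limits (2 or 5 UMIs), doublets removed, thinned counts, nuclei of 3000 to 8000 UMIs or with at least 10 Slc1a2 UMIs, no limit on transmitter UMIs, 1 fit of all libraries, each library left out, and, added after seeing the data, nuclei without Pdgfra or Vcan UMIs. Positions are from GENCODE vM21 on GRCm38.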

Additional observations from a re-analysis of the deposited data

Results flagged for a closer look

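Genotype differences that differed between Gfap-high and Gfap-zero astrocytes of the same libraries were called for 12 genes at 6 months and 25 genes at 12 months with edgeR. The values below are the log2 difference in Gfap-high nuclei minus that in Gfap-zero astrocytes, for the genes whose libraries lay on one side. No explanation was tested, and DESeq2 called none of the terms.

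At 6 months the term was 2.79 for Car10, a carbonic anhydrase-related gene of neurons and glia, -1.50 for Egfem1, -1.35 for the sialyltransferase gene St6galnac3, 1.21 for Csmd1 and 1.42 for Cntnap2. Car10 was at 157 ± 80.8 CPM (mean ± SD, n = 3) in the Gfap-high nuclei of 3xTg-AD and 24.2 ± 11.5 CPM in those of WT, against 196 ± 23.5 and 228 ± 40.2 CPM in Gfap-zero astrocytes. St6galnac3 was at 327 ± 171 and 654 ± 261 CPM in Gfap-high nuclei and at 93.0 ± 8.71 and 79.8 ± 20.3 CPM in Gfap-zero astrocytes. The fitted value of 10.32 for Lin7a is no bound on a fold, since all 3 WT sums of Gfap-high nuclei were at 0, against 83.3 ± 46.4 CPM in 3xTg-AD.

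At 12 months the term was 3.94 for Galntl6, 1.75 for Rbfox1, 2.0 for Nrg3, 1.77 for Snhg11, 1.47 for Meg3, 1.43 for Mgat4c, 1.66 for Inpp4b, 3.12 for Ryr3, 1.35 for Nkain2 and 3.27 for Spock3. Rbfox1, a splicing factor of neurons, was at 1813 ± 1348 CPM in the Gfap-high nuclei of 3xTg-AD and 475 ± 262 CPM in those of WT, against 1498 ± 193 and 1626 ± 338 CPM in Gfap-zero astrocytes. The term was negative for Ddx60 (-2.67), an interferon-induced gene at 53.2 ± 13.9 CPM in the Gfap-high nuclei of 3xTg-AD and 108 ± 77.9 CPM in those of WT. In Gfap-zero astrocytes, Ddx60 was at 28.7 ± 18.7 and 6.43 ± 2.34 CPM. The fitted value of -10.23 for Rspo3, a Wnt agonist, is no bound either, since all 3 3xTg-AD sums were at 0, against 115 ± 118 CPM in WT.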

How the results depend on the processing

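No paired analysis was possible because the mice carry no shared numbers across groups. Leaving out a library moved the share among rule astrocytes from -0.220 to 0.223 points for 3xTg-AD minus WT, from -0.705 to -0.288 for 12 minus 6 months and from -0.579 to 0.308 for the interaction. Among retained nuclei these ranges were -0.0374 to 0.00612, -0.0915 to -0.0486 and -0.0282 to 0.0588 points, and for the log2 Gfap level -0.20 to 0.0876, -0.45 to -0.17 and -0.47 to 0.10. Besides a left-out library, the limit of at least 5 Gfap UMIs reversed the genotype difference in the share of rule astrocytes to -0.0639. It reversed the interaction to 0.0375. Thinning to 3000 UMIs, which also left out nuclei of lower depth, reversed them to -0.348 and 0.400.

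Calls between genotypes at 6 months went from 3, all lower in 3xTg-AD, to 22 without the filter, 17 higher and 5 lower. They went to 0 with at least 5 Gfap UMIs or with all 12 libraries in 1 fit. With a library left out they ranged from 1 (without WT replicate 7) to 29 (without 3xTg-AD replicate 1, 20 higher and 9 lower). At 12 months they were 13 without the filter, 2 without doublets and 4 with at least 2 Gfap UMIs, with 0 to 10 for a left-out library. Between ages they were 6 without the filter and 0 with DESeq2, without doublets and with at least 2 or 5 Gfap UMIs, with 0 to 3. The interaction had 8 without the filter and 1 with thinned counts, with 0 to 4 (4 without the 12-month 3xTg-AD replicate 6). Terms for class and genotype numbered 0 with DESeq2 at both ages and 7 to 31 at 6 months and 7 to 33 at 12 months with a library left out. The causes were not tested.

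Calls between the classes numbered 1496 with at least 10 Slc1a2 UMIs, in fewer nuclei, and 2463 to 2680 with a library left out. Fold changes reversed with at least 10 Slc1a2 UMIs for Fbxo2 (-0.34), Otx2 (-1.08), Slc7a11 (-0.31) and Utrn (-0.0017). All 19 leading genes and 39 of 72 called list genes kept their call and direction in every alternative run that tested them. Of the 39, C3 was tested in 16 of 20 runs, and Hspb1 and Itgb4 in 19. Sums of 12 to 46 nuclei limit the genotype and age comparisons to abundant genes.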
